A study of Homo sapiens with 4 samples.

Results

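The tumour suppressor p53 is a transcription factor that is stabilised when DNA is damaged and then switches on genes that stop the cell cycle, repair DNA, adjust metabolism or start cell death. Several of its targets, MDM2 first among them, act back on p53 and hold it in check. In glioma cells treated with an alkylating drug, this response is one of the routes between DNA damage and arrest or death. Described here are 30 genes of this pathway, taken by name from the 58219 gene IDs of the deposited table. They comprise 5 feedback genes, 6 genes of arrest and stress kinase signalling, 4 repair genes, 5 genes of metabolism and redox balance and 10 genes of death and signalling. All 30 matched 1 gene ID each and passed the filter on low values.

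The libraries came from GBM8401, a human malignant glioma cell line. The parental group held 2 libraries of the line itself, and the resistant group held 2 libraries of GBM8401 cells kept in medium with 200 µM temozolomide (TMZ) for 140 days. TMZ is the methylating drug used against glioblastoma. The labels call the replicates biological and name no more than 1 resistant line. Whether the 2 resistant libraries stem from separate selections is not given. The p-values are therefore read as measuring the spread between these cultures and not between independently derived lines. Whether the drug was still present when RNA was taken is not given in the sources used here. Fewer cells of a type and less RNA per cell cannot be told apart in such bulk libraries.

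Deposited totals were 23163310 to 25832511 scaled fragments per library, and 16132 genes were tested. Of these 37.1% were called at an adjusted p under 0.05, 16.2% because they were higher and 20.9% because they were lower in the resistant line. Those were 2621 higher and 3370 lower genes, and scaling to the library total gave 3665 higher and 2773 lower. Of the 12 glioma and glial markers, VIM, CD44, EGFR, NES and SLC1A3 were abundant, whereas GFAP, S100B, SOX2 and AQP4 were too low to be tested, with group means of at most 9.94. The summed level of these markers was 117616 to 124439 in parental and 81201 to 89766 in resistant libraries. VIM weighed most in these sums, with means of 77728 in parental and 50947 in resistant libraries. Of the 8 tested, 1 was higher (SLC1A3) and 3 were lower (VIM, NES and CD44). Of the 18 markers of blood, endothelial, epithelial, fibroblast, neuron and oligodendrocyte cells, 16 were tested, of which CD68 and RBFOX3 rose and CDH5 fell. Their summed level was 5946 to 7756 in parental and 6844 to 8134 in resistant libraries. The fibroblast marker COL1A1 weighed most there, with means of 3610 in parental and 3713 in resistant libraries, and was not called. AIF1 and MOG were listed at 0, and both lie between 29 and 34 Mb of chromosome 6, where 64.4% of the 180 coding genes were listed at 0 in every library against 13.4% elsewhere. Whether the changes in these markers bear on the genes described here was not tested.

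RefSeq promoter windows (build GRCh38.p14, 250 bases before to 50 after a start) were found for 24 of the 30 genes. FBXO22, PHLDA3, GADD45A, RRM2B, CMBL and TP53INP1 had no window and were not searched. The windows were searched for the p53 response element, which consists of 2 half-sites of 10 bases set apart by up to 13 bases. A match had the invariant C and G of both half-sites and at most 3 mismatches in all. The consensus reads the same on both strands. Such a match was present for 7 of the 24 genes (29.2%) and for 15.3% of all 27303 genes with RefSeq windows, expressed here or not. With at most 2 mismatches it was present for 4 of the 24 (16.7%) and for 3.62% of those 27303. A gene counted if any of its windows matched, with 36 windows for the 24 genes and 35114 for the 27303. The number of windows per gene was not matched between the 2 sets. The genes were listed as p53 targets, and such lists draw in part on known sites, so these shares are a description. The matches are printed because the genes that hold them differ in response. Capitals mark the half-sites and lower case the spacer and, for MDM2 and SESN1, the flanks.
MDM2, chr12:68808893-68808972, plus strand, 2 mismatches: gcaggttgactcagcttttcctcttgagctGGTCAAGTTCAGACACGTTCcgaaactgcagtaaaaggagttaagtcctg
SESN1, chr6:109008989-109009067, minus strand, 3 mismatches: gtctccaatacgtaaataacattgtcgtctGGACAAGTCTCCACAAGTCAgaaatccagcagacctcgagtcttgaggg
DDB2, chr11:47214979-47214999, plus strand, 0 mismatches: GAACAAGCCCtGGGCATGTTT
FDXR, chr17:74872996-74873025, minus strand, 2 mismatches: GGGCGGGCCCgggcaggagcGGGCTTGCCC
AEN, chr15:88621306-88621325, plus strand, 2 mismatches: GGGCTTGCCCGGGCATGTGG
PLK2, chr5:58460196-58460218, minus strand, 3 mismatches: AGACTTGCTTcccGGCCACGCGC
ZMAT3, chr3:179071867-179071892, minus strand, 3 mismatches: GGGCCTGCTCcgccaaGCACATGCGC
The MDM2, SESN1 and DDB2 matches belong to internal starts within these genes, and the windows at the 5' ends of the 3 genes held none. The MDM2 match stands upstream of its start, and the DDB2 match lies 6 to 26 bases after its start. DDB2 was the 1 gene of the 24 with no mismatch in either half-site, which was true of 10 (0.0366%) of the 27303 RefSeq genes. TATAAA, sought on both strands, was in no window of the 24 genes and in those of 14% of the RefSeq genes. CCAAT was in those of 12 of the 24 genes (50.0%) and 39.7% of the RefSeq genes. The median GC content of the windows was 66.7% for the 24 genes and 58.7% over all RefSeq windows. No match says only that these letters are not in the window, and CDKN1A, whose known p53 sites lie further upstream, had none.

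Most of the 30 genes were higher in the resistant line. By limma, 22 rose and 0 fell (73.3% higher, beside 16.2% of all genes tested), with a median log2 fold change of 0.59 beside −0.02 over all genes. At an unadjusted p under 0.05 the same counts were 22 higher and 2 lower. The share of all genes at that threshold is not given here, so these counts are a description only. The genes were chosen with p53 targets already known to be higher in these libraries, so the count is not independent evidence. In 23 genes both resistant libraries lay above both parental ones (32.2% of all genes tested), in 3 both lay below (36.4% of all genes), and in 4 the groups overlapped. A called rise of at least 2-fold was seen in 4 genes, namely TP53INP1, CDKN1A, FDXR and RRM2B (5.39% of all genes tested).

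**Figure D1:**
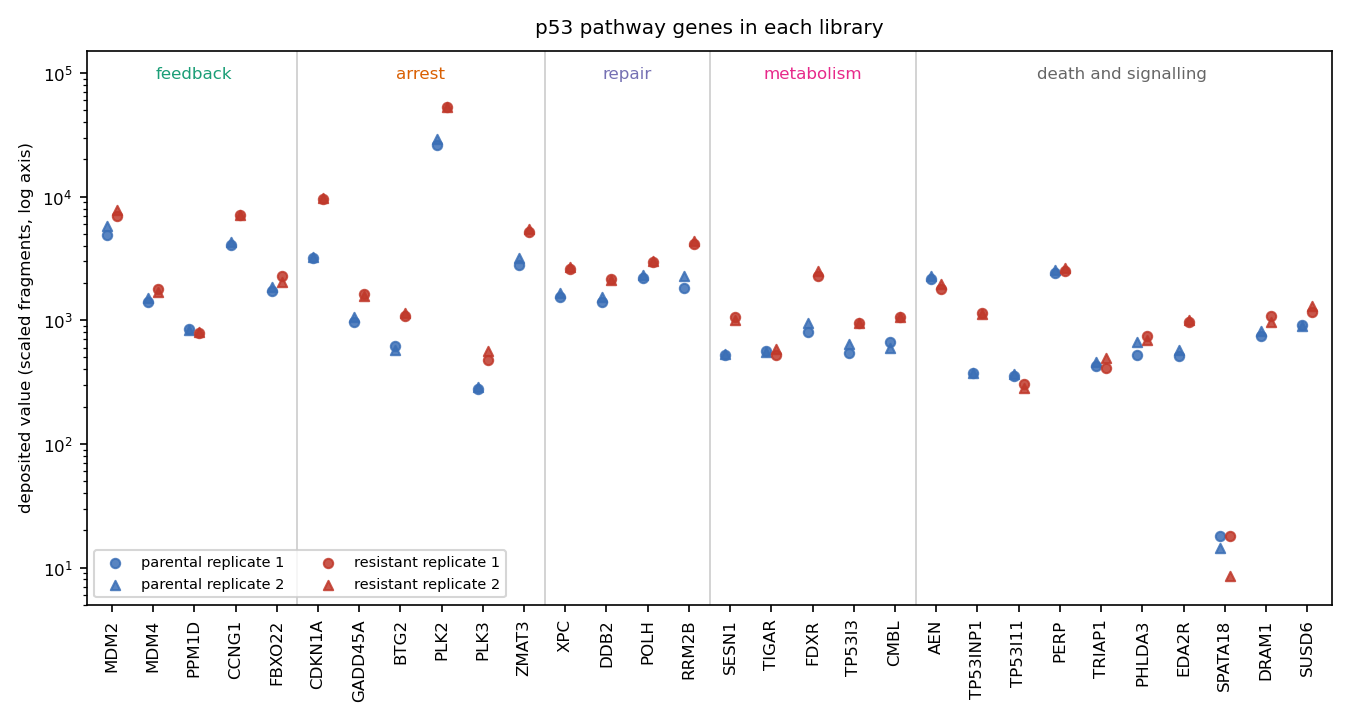
Deposited value (scaled fragments, log axis) of each of the 30 genes in each library; blue marks parental and red resistant libraries, circles replicate 1 and triangles replicate 2, and vertical lines part the roles. Red points stand above blue ones in every arrest and repair gene, and SPATA18 lies near 10 to 20, far below the rest.

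The counts varied by role. All 6 arrest genes and all 4 repair genes rose, with median log2 fold changes of 0.90 and 0.62. Among metabolic genes 4 of 5 rose (median 0.75), and among feedback genes 4 of 5 rose (median 0.27). Of the 10 death and signalling genes 4 rose, and their median was 0.17. Over all genes tested 16.2% rose, and the median was −0.02. The difference between roles was not tested.

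**Figure D2:**
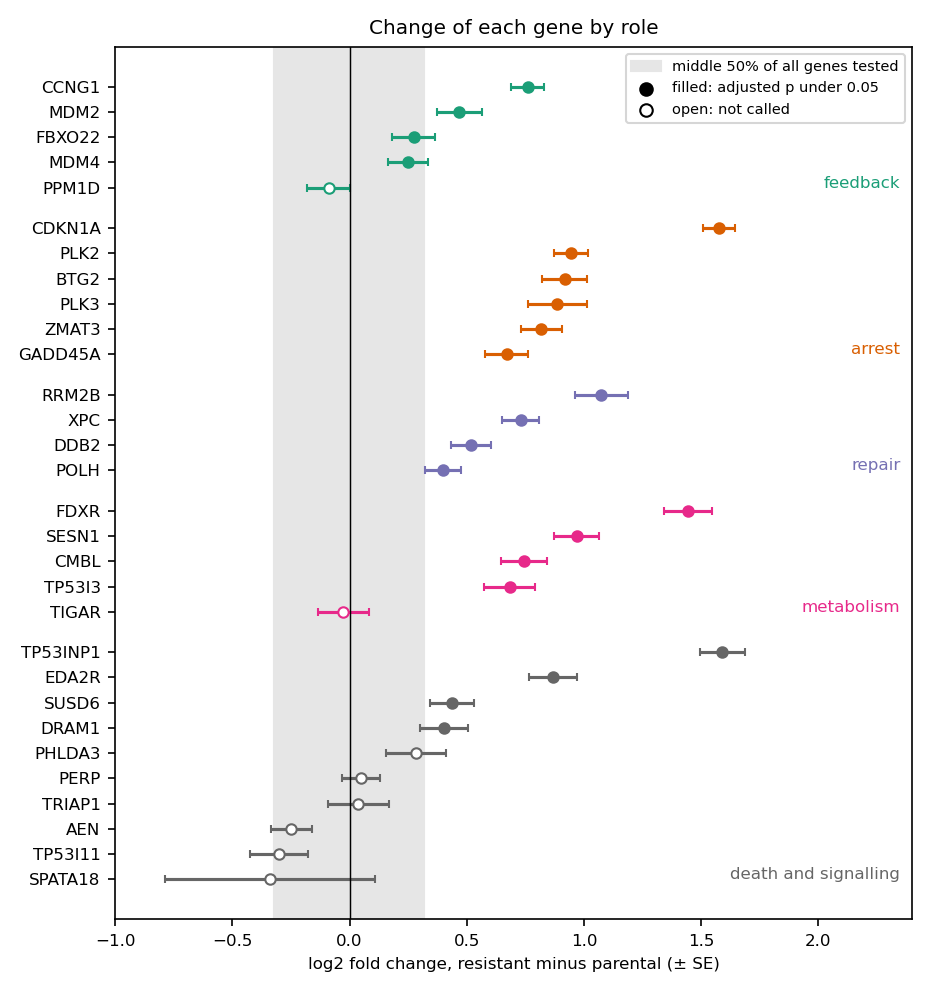
Log2 fold change of each gene (resistant minus parental, bars ± SE from limma), ordered within its role; filled points were called at an adjusted p under 0.05 and open ones were not, and the grey band holds the middle 50% of all genes tested (−0.32 to 0.32). All arrest and repair genes stand to the right of the band, while 6 of the 10 death and signalling genes are open.

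CDKN1A encodes p21, the inhibitor of cyclin-dependent kinases through which p53 stops the cell cycle. Its gene (ENSG00000124762) lies on chromosome 6 at 36676460 to 36687339 (GRCh38, plus strand). Its values were 3194 and 3233 scaled fragments in the parental and 9513 and 9666 in the resistant libraries. Both resistant libraries stood far above both parental ones, and replicates lay close together. The log2 fold change was 1.58 ± 0.07 (SE), 2.98-fold with a 95% interval of 2.68 to 3.33 (limma, adjusted p = 1.36e-05). It ranked within the highest 2.13% of all genes by log2 fold change.

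The Polo-like kinases PLK2 and PLK3 are stress-responsive relatives of the mitotic kinase PLK1. PLK2 was at 26172 and 29183 in parental libraries against 53347 and 53072 in resistant ones, 1.93-fold higher (log2 fold change 0.95 ± 0.07, adjusted p = 1.01e-04). PLK3 was at 276 and 287 against 481 and 564, 1.85-fold higher (0.89 ± 0.13, adjusted p = 1.22e-03). The relatives thus rose by similar folds from very different levels. Per kilobase of exon, PLK2 stood at 5805 ± 447 scaled fragments in parental and 11160 ± 40.7 in resistant cells (SD, n = 2), the highest level of the 30 genes in either group. PLK3 stood at 80.9 ± 2.25 and 150 ± 16.8 on the same scale.

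BTG2 is an antiproliferative cofactor of mRNA deadenylation, ZMAT3 an RNA-binding zinc finger protein and GADD45A a damage-induced partner of PCNA and p21. BTG2 was at 614 and 571 in parental libraries and 1088 and 1152 in resistant ones, 1.89-fold higher (adjusted p = 3.27e-04). ZMAT3 was at 2807 and 3191 against 5129 and 5430, 1.76-fold higher (adjusted p = 3.31e-04). GADD45A was at 960 and 1062 against 1637 and 1578, 1.59-fold higher (adjusted p = 9.24e-04). Over all genes tested, 32.2% had both resistant libraries above both parental ones. In all 3 the groups lay apart, and each was called in every one of 13 alternative settings.

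Repair genes rose to differing degrees. RRM2B encodes the p53-inducible small subunit of ribonucleotide reductase, which supplies deoxynucleotides outside S phase. Its values were 1810 and 2286 in parental libraries against 4163 and 4402 in resistant ones. The resistant libraries were both higher, and the spread of the parental ones (a coefficient of variation of 16.4%) was the largest among the 22 genes called. Its log2 fold change was 1.07 ± 0.11, 2.1-fold with a 95% interval of 1.75 to 2.52 (limma, adjusted p = 3.99e-04).

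XPC and DDB2 recognise helix-distorting lesions in nucleotide excision repair, and POLH is the polymerase that copies past ultraviolet damage. XPC was at 1551 and 1652 in parental libraries and 2609 and 2702 in resistant ones, 1.66-fold higher (adjusted p = 3.87e-04). DDB2, with the full p53 element at an internal start, was at 1416 and 1554 against 2154 and 2098, 1.43-fold higher (adjusted p = 2.18e-03). POLH was at 2200 and 2304 against 2947 and 2988, 1.32-fold higher (adjusted p = 4.43e-03). None of the 3 overlapped between groups, and 32.2% of all genes tested likewise had both resistant libraries above both parental ones. POLH overlaps GTPBP2, which also rose, on the other strand (log2 fold change 0.39), and XPC overlaps LSM3 (−0.30, not called). The strand setting of the authors' counting is not given, so fragments of such partners cannot be told apart.

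Among metabolic genes FDXR led. It encodes ferredoxin reductase of the mitochondrion, an enzyme of iron-sulfur cluster and steroid synthesis. It was at 810 and 952 in parental libraries against 2295 and 2498 in resistant ones, with a log2 fold change of 1.45 ± 0.10, 2.72-fold and a 95% interval of 2.31 to 3.21 (limma, adjusted p = 7.88e-05). SESN1, a sestrin that restrains mTORC1, was at 521 and 537 against 1069 and 1004, 1.96-fold higher (adjusted p = 2.62e-04). Both hold a match to the p53 element in a promoter window.

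TP53I3, a quinone oxidoreductase, was at 545 and 637 in parental libraries and 941 and 951 in resistant ones, 1.61-fold higher (adjusted p = 1.91e-03). CMBL, a hydrolase of the cytosol, was at 669 and 600 against 1058 and 1068, 1.68-fold higher (adjusted p = 8.30e-04). TIGAR, a phosphatase that lowers fructose-2,6-bisphosphate and slows glycolysis, went its own way. It was at 566 and 555 in parental libraries against 519 and 584 in resistant ones, and the groups overlapped. Its log2 fold change was −0.03 ± 0.11 (adjusted p = 0.876), and the 95% interval of the fold, 0.825 to 1.17, does not reach the size of the other 4.

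Among the feedback genes, MDM2, the ubiquitin ligase that marks p53 for destruction (ENSG00000135679, chromosome 12 at 68808176 to 68850686), was at 4923 and 5736 in parental libraries and 6952 and 7770 in resistant ones. Both resistant values were higher, with replicates of either group well apart from each other. The log2 fold change was 0.47 ± 0.10, 1.38-fold with a 95% interval of 1.19 to 1.61 (limma, adjusted p = 6.14e-03). That interval lies below the interval of CDKN1A, 2.68 to 3.33.

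MDM4, the relative of MDM2 that covers the activation domain of p53, was at 1409 and 1502 in parental libraries against 1781 and 1676 in resistant ones, 1.19-fold higher (adjusted p = 0.0495). FBXO22, an F-box protein that targets methylated p53, was at 1708 and 1858 against 2275 and 2037, 1.21-fold higher (adjusted p = 0.0447). Both calls stood close to the threshold. The MDM4 call was lost without any 1 of the 4 libraries, where the adjusted p was 0.0537 to 0.291. The FBXO22 call was lost without parental replicate 1 (0.163), resistant replicate 1 (0.310) or resistant replicate 2 (0.0650).

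CCNG1, cyclin G1, which recruits a phosphatase to MDM2, was the feedback gene with the largest rise. It was at 4085 and 4276 in parental libraries and 7034 and 7119 in resistant ones, a log2 fold change of 0.76 ± 0.07, or 1.69-fold (limma, adjusted p = 1.97e-04). PPM1D, the phosphatase WIP1, which removes damage-induced phosphates from p53 and its kinases, was not called. Its values were 847 and 836 in parental libraries against 782 and 799 in resistant ones, with both resistant values slightly lower. The fold was 0.940 with a 95% interval of 0.813 to 1.09 (adjusted p = 0.486).

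TP53INP1 had the largest fold of the 30 genes. It encodes a nuclear stress protein that promotes p53 phosphorylation and autophagy. On chromosome 8 (94925972 to 94949411, minus strand), it was at 375 and 372 in parental libraries and 1139 and 1115 in resistant ones. The log2 fold change was 1.59 ± 0.10, 3.01-fold with a 95% interval of 2.58 to 3.51 (limma, adjusted p = 4.09e-05). It overlaps NDUFAF6 on the other strand, which fell (log2 fold change −0.48).

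EDA2R, a receptor of the tumour necrosis factor family that binds ectodysplasin A2, was at 512 and 571 in parental libraries against 969 and 1009 in resistant ones, 1.83-fold higher (adjusted p = 5.08e-04). SUSD6, a membrane protein also called DRAGO, was at 910 and 903 against 1163 and 1296, 1.35-fold higher (adjusted p = 7.49e-03). DRAM1, a lysosomal membrane protein of autophagy, was at 741 and 812 against 1081 and 974, 1.32-fold higher (adjusted p = 0.0152). The groups lay apart in each of these, with the resistant libraries higher, which held for 32.2% of all genes tested. The SUSD6 call was lost without resistant replicate 2 (adjusted p = 0.0872), and the DRAM1 call without parental replicate 1 (0.0531) or resistant replicate 1 (0.143).

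The other 6 genes of this role were not called. AEN, a nuclease of apoptosis, was at 2170 and 2280 in parental libraries and 1775 and 1974 in resistant ones, so both resistant values were lower. Its log2 fold change was −0.25 ± 0.09 (limma, adjusted p = 0.0528), although its promoter window holds a p53 match with 2 mismatches. TP53I11 was at 354 and 368 against 303 and 283, also lower in both, with a log2 fold change of −0.30 ± 0.12 (adjusted p = 0.0903). TP53I11 overlaps TSPAN18, which rose, on the other strand.

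PHLDA3, an inhibitor of AKT, was at 528 and 661 in parental libraries against 752 and 687 in resistant ones. Its log2 fold change of 0.28 ± 0.13 did not pass (adjusted p = 0.122), with the parental libraries far apart, and it passed without parental replicate 2 (adjusted p = 0.0237). PERP, a membrane protein of desmosomes, was at 2392 and 2570 against 2486 and 2644, and TRIAP1, a small inhibitor of apoptosis, at 429 and 456 against 413 and 499. Groups overlapped in both, and the 95% intervals of their folds were 0.909 to 1.18 and 0.836 to 1.26. SPATA18, a regulator of mitochondrial quality, was close to the filter, at 17.9 and 14.3 against 18.1 and 8.49, and its interval of 0.387 to 1.61 leaves a wide range of folds.

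The genes not called were not all low. Parental means ran from 16.1 to 2481 scaled fragments among the 8 genes not called and from 281 to 27677 among the 22 called. By level per kilobase of exon in parental cells, PERP (578 ± 29.3) ranked 5 and AEN (370 ± 13) ranked 8 of the 30 genes. RRM2B, at 369 ± 60.7, was nearly level with AEN. In resistant cells PERP and AEN ranked 8 and 17. CDKN1A passed CCNG1 in this order, from 1053 ± 8.98 to 3144 ± 35.5 per kilobase, while CCNG1 went from 1350 ± 43.6 to 2286 ± 19.5 (SD, n = 2).

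Coding genes near the 30 genes were also examined. For 21 of the 22 genes that rose, 3 to 38 tested coding genes had their start within 1 Mb, and PLK2 had none. Of these 332 neighbour entries 13% were called higher and 25% lower, beside 16.2% and 20.9% of all genes, coding or not. Among the 13313 coding genes tested, the like background, 2114 (15.9%) were higher and 3166 were lower. Near the 8 genes not called there were 102 entries, of which 19.6% were higher and 22.5% lower. Around the genes that rose, the neighbour medians ran from −0.47 at ZMAT3 to 0.17 at MDM4. At CDKN1A, 0 of 19 neighbours were called higher and 6 were called lower.

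MDM4, BTG2 and PHLDA3 lie within a few megabases of each other on chromosome 1. The neighbours had a median of 0.17 at MDM4 (4 of 20 called higher, 1 lower), 0.12 at BTG2 (4 of 21 higher, 1 lower) and 0.08 at PHLDA3 (5 of 21 higher, 4 lower). For MDM4, with a log2 fold change of 0.25, 8 of the 20 neighbours had a larger one. For BTG2, at 0.92, it was 2 of 21, and for PHLDA3, at 0.28, 6 of 21.

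**Figure D3:**
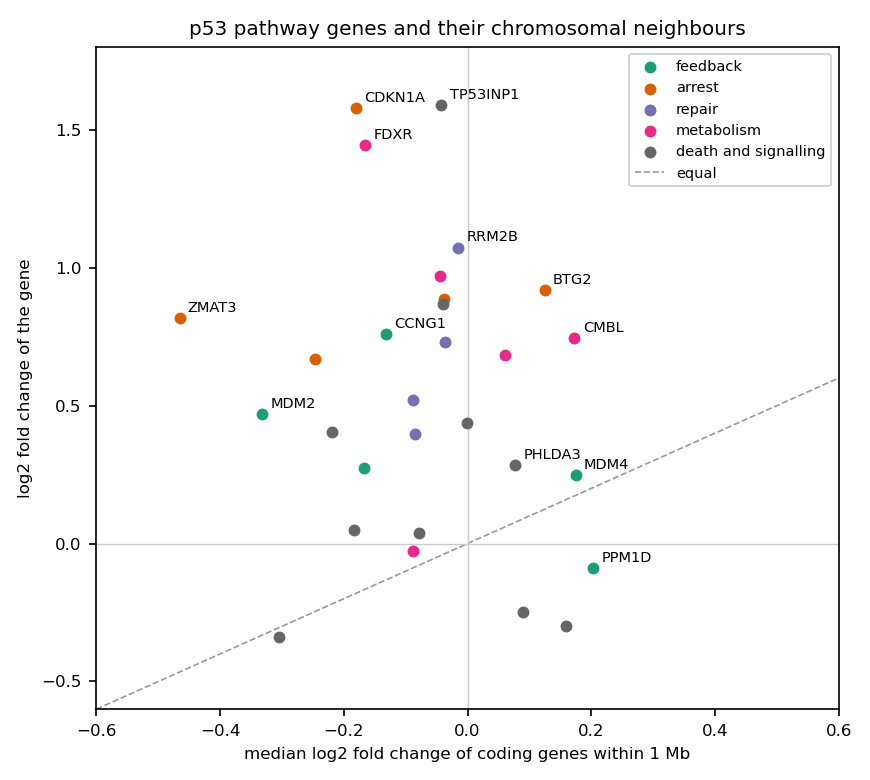
Log2 fold change of each gene (vertical axis) against the median log2 fold change of the tested coding genes that start within 1 Mb (horizontal axis), coloured by role; the dashed line marks equal values. Neighbour medians stay between −0.47 and 0.20, while CDKN1A, TP53INP1 and FDXR stand at 1.45 to 1.59.

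Other genes of the pathway gave a mixed picture. Their lists were also chosen with earlier results of these data known. The shares of each list called higher or lower are therefore a description and not independent evidence. Of 60 further reported p53 targets 31 rose (51.7%, beside 16.2% of all genes tested) and 6 fell (10.0%, beside 20.9%), with a median of 0.32. GDF15, a stress cytokine, was at 403 and 441 in parental libraries and 6571 and 5810 in resistant ones, and no other gene of the lists rose so far. TRIM22, an antiviral ligase, rose 2.99-fold (adjusted p = 3.79e-05), ATF3, a stress transcription factor, 3.40-fold (adjusted p = 4.39e-05) and LIF, a cytokine, 2.42-fold (adjusted p = 4.76e-05). GDF15, ATF3 and SESN2, which rose 2.18-fold, are also targets of the amino acid stress factor ATF4, and TRIM22 is also induced by interferon. Whether p53, ATF4 or interferon had a part in these rises was not tested. SFN, the 14-3-3 protein that holds cells in G2, and LIMK2, an actin-regulating kinase, ran the other way and fell 1.89-fold and 1.86-fold (adjusted p = 3.93e-04 and 3.44e-04).

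Targets of apoptosis and death receptor signalling, listed without parting those that promote death from those that restrain it, were called in both directions. Of 20 listed genes 19 were tested, and 2 rose (10.5%, beside 16.2% of all genes) and 7 fell (36.8%, beside 20.9%), although the median was 0.12. BBC3, the BH3-only protein PUMA, was at 146 and 166 in parental libraries against 352 and 337 in resistant ones, 2.2-fold higher (adjusted p = 6.78e-04). TNFRSF10B, a receptor of the death ligand TRAIL, rose 1.49-fold (adjusted p = 9.92e-04). SIVA1, a proapoptotic adaptor, was at 828 and 956 against 456 and 493, 1.87-fold lower (adjusted p = 6.40e-04), and APAF1, the core of the apoptosome, fell 1.74-fold (adjusted p = 9.78e-04). BAX, FAS and PMAIP1 did not pass, at log2 fold changes of 0.14, 0.20 and 0.17 (limma, adjusted p = 0.36, 0.219 and 0.281). These 3 were chosen after their values were seen.

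Among 40 regulators of p53, 38 were tested, of which 3 rose (7.89%, beside 16.2% of all genes) and 12 fell (31.6%, beside 20.9%), with a median of −0.19. CHEK2, a checkpoint kinase that phosphorylates p53, was at 244 and 253 in parental libraries and 523 and 527 in resistant ones, 2.11-fold higher (adjusted p = 3.68e-04). KMT5A, a lysine methyltransferase that acts on p53, rose 1.25-fold (adjusted p = 0.0223), a call lost without parental replicate 1, resistant replicate 1 or resistant replicate 2 and without trend and robust moderation (adjusted p = 0.0974 to 0.115). The third to rise, the ubiquitin ligase RCHY1, named here after its values were seen, rose 1.26-fold (adjusted p = 0.0404), and its call was lost without any 1 of the 4 libraries (adjusted p = 0.0777 to 0.269). Nucleolin (NCL) fell 1.61-fold (adjusted p = 2.59e-04), the methyltransferase SETD7 1.40-fold (adjusted p = 1.15e-03) and the ubiquitin ligase RFWD3 1.52-fold (adjusted p = 1.24e-03). DAXX, with group means of 1.29 and 0.753, lies in the stretch of chromosome 6 where values are incomplete.

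Most of the cell cycle genes listed as lowered through p21 and the DREAM repressor complex were lower in the resistant line. Whether p21 or this complex had a part in that was not tested. Of 30 such genes 27 fell (90%, beside 20.9% of all genes) and 1 rose (3.33%, beside 16.2%), with a median of −0.66. CDC25A, a phosphatase that activates cyclin-dependent kinases, was at 1920 and 1789 in parental libraries against 562 and 663 in resistant ones, 3.03-fold lower (adjusted p = 6.35e-05). MYBL2, a transcription factor of the cell cycle, fell 2.15-fold (adjusted p = 1.04e-04), PCNA, the sliding clamp, 1.82-fold (adjusted p = 1.63e-04) and MCM3, of the replicative helicase, 1.8-fold (adjusted p = 1.75e-04). CDC25C was the 1 gene to rise, 1.24-fold (adjusted p = 0.0212), and its call was lost in the same 4 settings as that of KMT5A (adjusted p = 0.0556 to 0.144). CHEK1 appears both here and among the regulators.

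**Figure D4:**
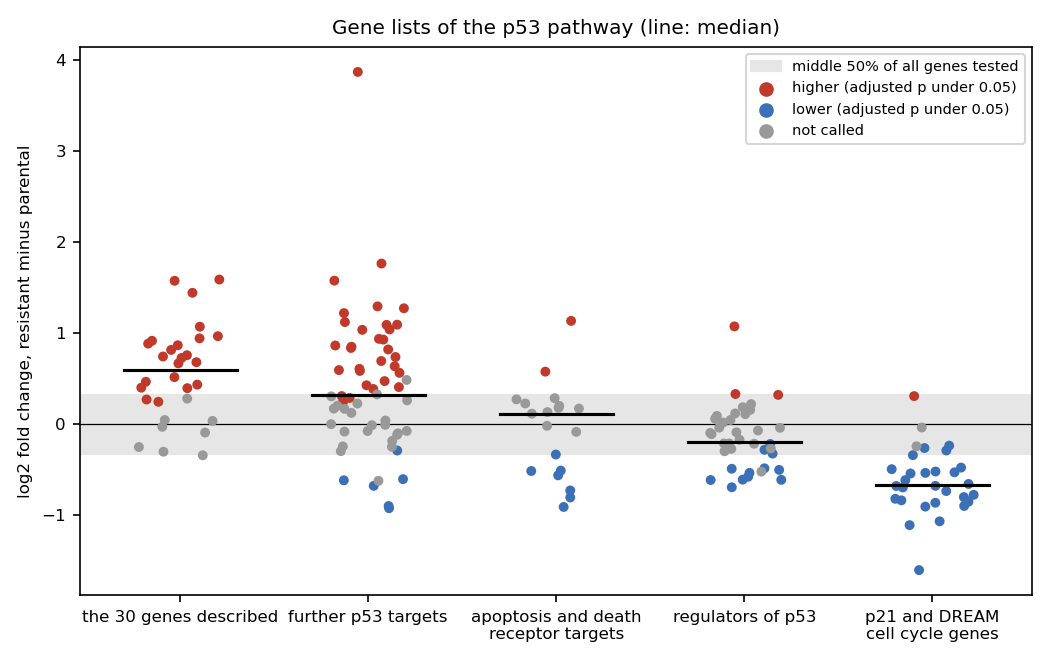
Log2 fold change of every tested gene in the 30 genes described and 4 other lists of the pathway, with points spread sideways for legibility, red for called higher, blue for called lower and grey for not called; black lines mark medians and the grey band the middle 50% of all genes tested. Medians step from 0.59 for the 30 genes to −0.66 for the cell cycle list, and the highest point is GDF15.

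Of the 22 called genes, 16 were called in each of the 13 alternative settings, and all 22 kept their direction there. POLH and MDM2 were each called in 12, SUSD6 in 11, DRAM1 in 10, FBXO22 in 9 and MDM4 in 7. The log2 fold change of CDKN1A ranged from 1.57 to 1.67 over these settings, and that of RRM2B from 0.90 to 1.24.

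**Figure D5:**
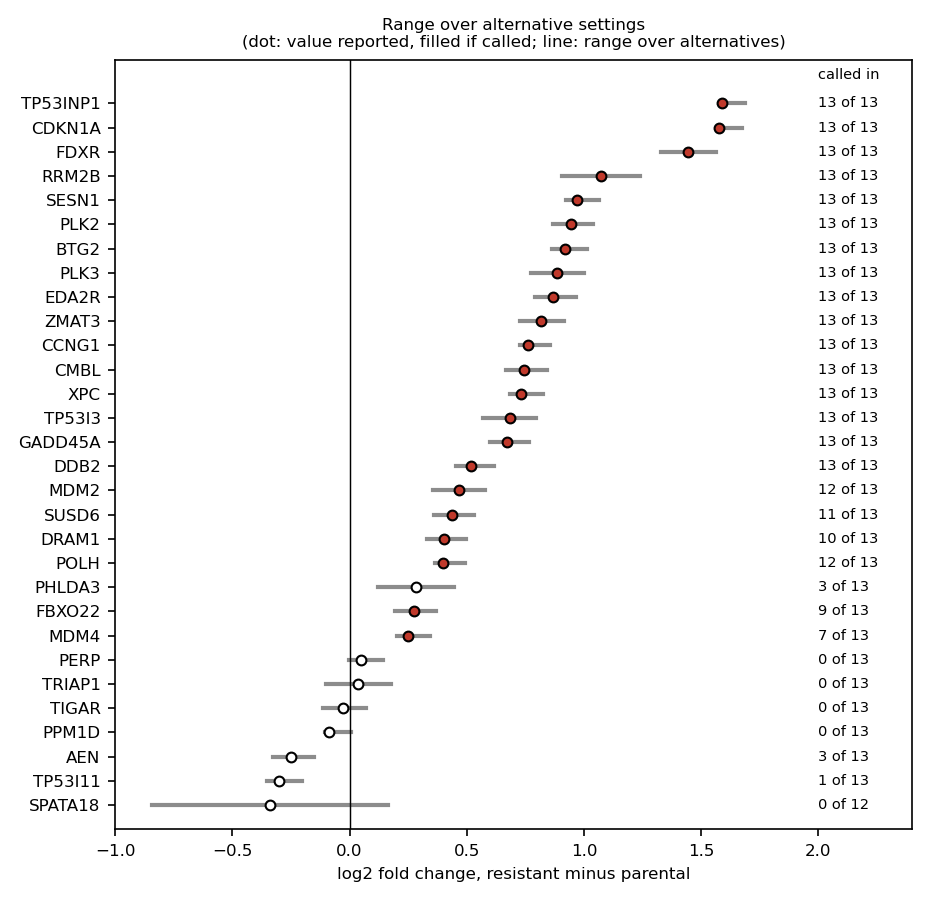
Log2 fold change of each gene as reported (dot, filled where called) and its range over the alternative settings (line), with the number of settings that called it at the right. The upper 16 genes were called in all 13, and the ranges of TIGAR, PERP, TRIAP1, PPM1D and SPATA18 cross 0.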

How the data were processed

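Total RNA was sequenced from 2 parental and 2 TMZ-resistant GBM8401 libraries, grouped by title. The submitters' processing notes name HISAT2 2.1.0 with SAMtools 1.2, Trimmomatic 0.36, bcl2fastq and Cufflinks 2.2.1 with Cuffdiff, and build GRCh38.p10. Settings, annotation release and strand setting are not given there. The authors deposited a signal per gene, namely fragment numbers multiplied by 1 factor per library and not divided by length. Values were used with that scaling. Genes with a value of at least 10 in at least 2 libraries and a sum of at least 15 were tested with limma 3.58.1 under R 4.3.3 on log2(value + 1), using trend and robust moderation and the group alone, two-sided, with Benjamini-Hochberg adjustment over all genes tested and a threshold of 0.05. Fold changes on this scale understate those of low genes. The code was tested on simulated data. GENCODE 29 gave positions and exon lengths (57881 of 58219 IDs matched), and promoters came from RefSeq (GRCh38.p14). The exon length of a gene was that of all its annotated exons merged, so genes with many isoforms read lower per kilobase. The 95% intervals are unadjusted. All 30 genes are named, and from each other list the 4 called genes with the smallest adjusted p plus up to 2 called the opposite way are named. Members and lists were chosen with earlier results of these data known.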

Additional observations from a re-analysis of the deposited data

How the results depend on the processing

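In the 13 alternatives 16 to 23 of the 30 genes were called higher, the 16 without trend and robust moderation. The median was 0.67 with a filter at 1 CPM, which removes SPATA18, 0.69 with scaling to the library total, and 0.51 to 0.63 when 1 library was left out. AEN was called lower with that filter and with TMM factors (1 gene lower in each). With the replicate block, 23 rose and 2 fell, AEN and TP53I11. The replicate numbers are not tied to a shared culture, and with 2 pairs (r = 0.265 between the deviations) the pairing stays a number only; all genes called were then 3903 higher and 4721 lower. PHLDA3 was called higher with the library total, with the replicate block and without parental replicate 2. Over all genes, leaving out 1 library gave 1356 to 2733 called higher and 2016 to 3137 lower, the lowest counts being those without resistant replicate 2 (1356 higher) and without resistant replicate 1 (1512 higher, 2016 lower), and without trend and robust moderation 1915 were lower. In the other lists, regulators called higher ranged from 1 to 7, and the 1 cell cycle gene called higher, CDC25C, was lost in 4 of the 13. The count tests planned (edgeR, DESeq2) were not run, because 93.8% to 94.3% of the values above 0 were whole multiples of the library's step within 0.05 and the rest were not. Groups of 2 libraries limit the precision, and depth limits it for SPATA18.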
